A study of Homo sapiens with 12 samples.

Results

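The genes described are 10 cytokine and chemokine genes of tumor cells, CXCL8, CXCL1, CXCL2, CXCL3, CCL2, IL1A, IL1B, IL6, IL11 and LIF, chosen by name from the 56269 genes of the count table. Of these, 9 were expressed above the filter on low counts and are among the 16069 genes tested, and CCL2 had no count in any library. The RNA came from HEYA8, a human cell line established from ovarian cancer, as 12 libraries, 3 for each of 4 stable populations, all cultured without treatment in RPMI-1640 with serum. The groups were control vector, ∆GAG-BG (genotype "deleted GAG", the S534A and S545A changes together), S534A (also named CS-BG) and S545A (also named HS-BG), whose library 3 is titled S545S but has the genotype S545A. The last 3 groups express human betaglycan (BG, gene TGFBR3), the TGF-β co-receptor, with serine to alanine changes at 1 or both of the sites where glycosaminoglycan chains attach. All constructs were in a lentiviral pHIV-dTomato backbone, and infected cells were sorted by dTomato. Each construct is thus represented by a single sorted population of 1 cell line with low BG of its own, and cells with unmutated BG were not analysed here. The question put to the genes is whether their RNA differed between populations that carry different chains on BG. None of the 9 expressed genes passed the test between groups after adjustment, whereas single libraries differed strongly, above all S534A 2, where CXCL8, CXCL1, CXCL2 and CXCL3 stood at 9.03 to 15.9 times the median of the other 11 libraries.

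CXCL8 (interleukin 8), CXCL1, CXCL2 and CXCL3 are chemokines with an ELR motif that draw neutrophils through the receptors CXCR1 and CXCR2, while CCL2 draws monocytes through CCR2. IL1A and IL1B encode interleukin 1α and 1β, which share the receptor IL1R1 and switch on the transcription factor NF-κB, which in turn induces IL6 and the ELR chemokines in many cell types. IL6, IL11 and LIF belong to the interleukin 6 family, whose receptors share the subunit gp130 (IL6ST) and activate STAT3, and several of these factors are secreted by ovarian cancer cells.

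Reference sequence from RefSeq (GRCh38.p14) was available here for the promoters of 8 of the 10 genes. The 120 bases before the transcription start are shown for the 4 ELR chemokine genes, because their RNA was high in the same libraries, and for IL6 beside them. They lie at chr4:73869273-73869392 on the plus strand (CXCL1), chr4:74099196-74099315 on the minus strand (CXCL2), chr4:74038690-74038809 on the minus strand (CXCL3), chr4:73740449-73740568 on the plus strand (CXCL8) and chr7:22727080-22727199 on the plus strand (IL6). Except for CXCL1, the RefSeq starts lie inside the wider gene spans of the count table, so those stretches lie partly or wholly within the span given there. Each is written 5′ to 3′ on the gene's strand, and capitals mark a match to the NF-κB consensus or to GGAATTTCC.
CXCL1: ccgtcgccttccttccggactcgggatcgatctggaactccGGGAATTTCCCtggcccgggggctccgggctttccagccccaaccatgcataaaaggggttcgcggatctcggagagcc
CXCL2: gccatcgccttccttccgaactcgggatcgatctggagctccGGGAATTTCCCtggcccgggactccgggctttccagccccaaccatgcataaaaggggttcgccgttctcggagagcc
CXCL3: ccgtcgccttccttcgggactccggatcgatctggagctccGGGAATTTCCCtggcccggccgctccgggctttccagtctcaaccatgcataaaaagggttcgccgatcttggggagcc
CXCL8: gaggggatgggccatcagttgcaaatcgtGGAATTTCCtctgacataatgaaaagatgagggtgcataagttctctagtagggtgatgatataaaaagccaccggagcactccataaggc
IL6: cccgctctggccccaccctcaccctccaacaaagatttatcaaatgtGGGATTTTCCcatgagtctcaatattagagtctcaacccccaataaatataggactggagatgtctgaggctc

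On either strand of the 300-base windows, from 250 bases before to 50 after the start, the NF-κB consensus was matched in CXCL1, CXCL2, CXCL3 and IL6, against 5.91% of 35116 RefSeq promoters. The first 3 carry the match at almost the same place, with GGAATTTCC beginning at -78 in CXCL1, -77 in CXCL2 and -78 in CXCL3, counted from the start site. CXCL8 has the same 9 letters at -91, where they overlap no match to the consensus. GGAATTTCC was looked for after these sequences had been seen, overlaps the consensus in the other 3 genes, and occurs in 0.461% of the promoters. The NF-κB consensus had 0 matches in CXCL8 and in IL1A, IL1B and IL11, whose sequences are not shown. The AP-1 motif TGANTCA was found in CXCL8 at -137, in IL11 at -96 and in both listed promoters of IL1A, against 7.71% of promoters. The C/EBP motif TTNNGCAA was found in CXCL2, IL1B and IL6, against 10.5%. These matches describe letters in the reference genome, and binding was not measured.

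In the count table, whose gene coordinates are those of GRCh38, CXCL8 (chr4:73740506-73743716, plus strand), CXCL1 (chr4:73869393-73871242, plus), CXCL3 (chr4:74036589-74038807, minus) and CXCL2 (chr4:74097035-74099293, minus) lie among 16 genes within 358.8 kb of chromosome 4. No other gene of that stretch had more than 2 counts in any library, and 7 of the 16 had none, CXCL6 and PF4 among them. CXCL1, CXCL2 and CXCL3 are near copies of each other, and 4.81%, 12.5% and 6.01% of the 50-base stretches of their transcripts also occur in another of the 10 genes, so some reads could be counted under a neighbour. IL1A (chr2:112773915-112784590) and IL1B (chr2:112829751-112836903) lie side by side on the minus strand of chromosome 2, and CCL2 is at chr17:34255218-34257203 on the plus strand. IL11 is at chr19:55364389-55370463 on the minus strand. IL6 (chr7:22725884-22732002, plus) shares 428 exon bases with the antisense gene AC073072.5, which had at most 19 counts. LIF (chr22:30240447-30246851, minus) shares 92 and 175 exon bases with the antisense genes RP1-102K2.6 and RP1-102K2.8, which had at most 3 and 17 counts.

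Total counts were 16410001 to 29504297 per library. TGFBR3, the gene of the constructs, was scaled like all levels here to CPM (counts per 1000000 of the TMM-adjusted library total). It stood at 476, 413 and 457 CPM in the S534A libraries 1, 2 and 3 and at 574, 522 and 520.4 CPM in the S545A libraries, but at 15.9, 259 and 259 CPM in the libraries labelled control vector and at 259.6, 20.3 and 21.4 CPM in those labelled ∆GAG-BG. Libraries 2 and 3 of both groups thus go against their labels, so that directions between those groups rest on labels that TGFBR3 does not bear out. S534A and S545A against either group use the same libraries, so S545A against S534A is the only comparison without them. Libraries 2 and 3 of control vector, ∆GAG-BG and S545A were also nearly alike, in that the chi-square of their counts was 1.40 to 1.99 per degree of freedom, where 1 would be sampling noise alone, against 17.4 to 78.6 for the other pairs of a group, and whether they are separate cultures is not stated. The p-values therefore measure the spread between libraries, which may be technical. HEYA8, labelled high grade serous ovarian cancer, expressed PAX8 (193 to 295 CPM), KRT7 (746 to 1140.0 CPM) and VIM (2343 to 3132 CPM), whereas CDH1 and MUC16 were at 0 counts in all 12 libraries.

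The levels of the 10 genes differed widely. Per kilobase of transcript, the median over the 12 libraries was 134.7 CPM for IL1A, 26.9 for IL1B, 17.7 for CXCL1, 6.91 for IL11, 5.57 for CXCL8, 5.41 for LIF, 3.67 for CXCL2, 0.693 for CXCL3 and 0.654 for IL6. IL1A stood above IL1B in 12 of 12 libraries, CXCL1 above IL11 in 12 of 12 and CXCL2 above CXCL3 in 12 of 12. The other neighbours in this order changed places from library to library, with IL1B above CXCL1 in 8, IL11 above CXCL8 in 7, CXCL8 above LIF in 6, LIF above CXCL2 in 7 and CXCL3 above IL6 in 7 of 12. CCL2 had 0 counts throughout, which sets an upper limit of about 3 counts or 0.1001 to 0.182 CPM per library. The limit is approximate and covers counting error only.

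CXCL8 was measured at 42.3, 12.8 and 12.5 CPM in the libraries 1, 2 and 3 labelled control vector, at 78.5, 10.2 and 11.2 CPM in those labelled ∆GAG-BG, at 26.1, 168 and 8.13 CPM in S534A and at 45.9, 11.0 and 12.3 CPM in S545A. Library 1 was the highest in every group but S534A, where library 2 was 20.7 times library 3. The group means were 22.5 ± 17.1 (SD, n = 3) for control vector, 33.3 ± 39.1 for ∆GAG-BG, 67.5 ± 87.8 for S534A and 23.1 ± 19.7 for S545A. Of the variation of log2(CPM + 1) of CXCL8, 93.2% lay within groups, against a median of 79.2% over all genes tested. The same share was 79.9% for CXCL1, 83.4% for CXCL2 and for CXCL3, 65.9% for IL1A and 87.2% for IL1B. It was 91.2% for IL6, 94.3% for IL11 and 97.1% for LIF.

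CXCL1, the most abundant of the ELR chemokine genes, read 45.8, 15.7 and 17.3 CPM in control vector, 57.7, 23.9 and 21.9 CPM in ∆GAG-BG, 41.0, 348 and 16.3 CPM in S534A and 56.8, 17.3 and 14.7 CPM in S545A. Library 2 of S534A was again the highest, 6.03 times the next library (∆GAG-BG 1) and 15.9 times the median of the other 11. CXCL2 had 8.61, 4.38 and 4.11 CPM in control vector, 26.8, 5.16 and 5.83 in ∆GAG-BG, 8.39, 46.9 and 3.94 in S534A and 11.0, 5.19 and 4.48 in S545A. CXCL3, the least abundant of the 4, had 2.56, 1.23 and 1.37 CPM in control vector, 4.72, 2.00 and 1.22 in ∆GAG-BG, 1.71, 16.02 and 1.15 in S534A and 2.48, 1.23 and 1.23 in S545A. All 4 ELR chemokine genes were highest in S534A 2, next in ∆GAG-BG 1, and higher in library 1 than in 2 and 3 of control vector, ∆GAG-BG and S545A.

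**Figure D1:**
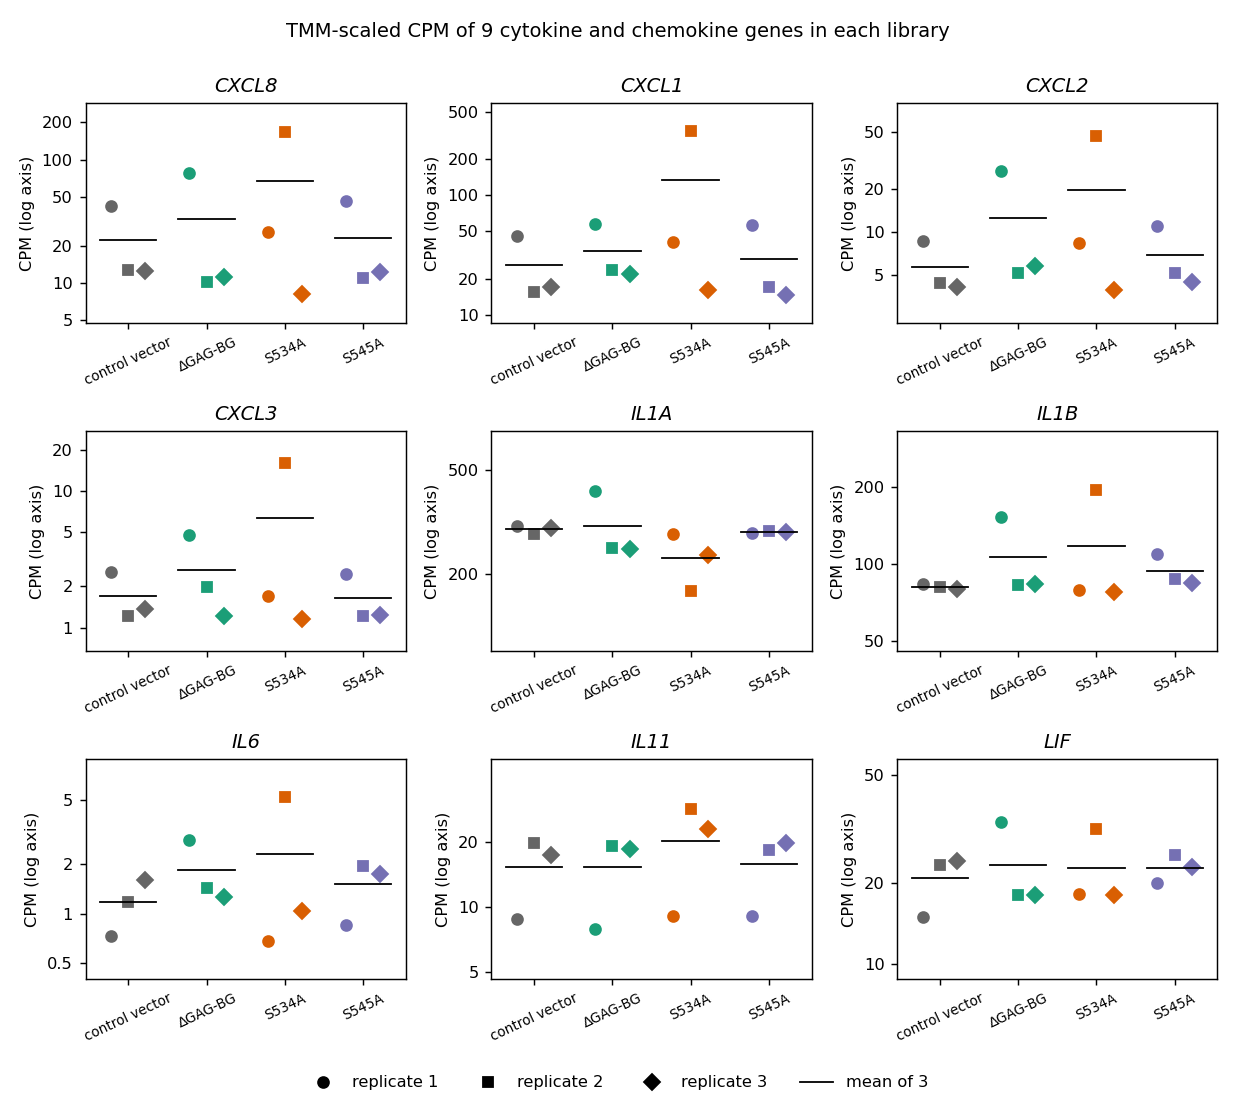
Level of the 9 expressed cytokine and chemokine genes in each of the 12 libraries, in CPM on a log axis, with symbols for replicates 1, 2 and 3 and a line at the mean of each group of 3. CXCL8, CXCL1, CXCL2 and CXCL3 are highest in S534A 2 and next highest in ∆GAG-BG 1, while IL11 is lowest in replicate 1 of every group.

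Summed, the 4 ELR chemokine genes gave 579 CPM in S534A 2, 168 CPM in ∆GAG-BG 1, 116 CPM in S545A 1, 99.3 CPM in control vector 1 and 77.2 CPM in S534A 1, and 29.5 to 41.3 CPM in the other 7 libraries. CXCL1 gave 60.1% of these counts in S534A 2 and 44.8 to 58.0% in 10 other libraries, but 34.4% in ∆GAG-BG 1, where CXCL8 gave the largest share, 46.8%. CXCL8 made up 24.7 to 42.6% elsewhere.

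Over the 12 libraries 88.9% of all genes tested had a smaller SD of log2(CPM + 1) than IL1A. Even so, IL1A had the smallest SD of the 9, 0.29. It read 304, 285 and 299.9 CPM in control vector, 416, 250.3 and 250.02 CPM in ∆GAG-BG, 285, 172 and 236 CPM in S534A and 287, 292 and 291 CPM in S545A. In contrast to the chemokine genes, IL1A had its lowest value in S534A 2, at 0.599 times the median of the other libraries. IL1B had 83.5, 80.9 and 79.8 CPM in control vector, 152, 82.9 and 83.0 CPM in ∆GAG-BG, 79.0, 195 and 77.4 CPM in S534A and 109, 86.9 and 84.3 CPM in S545A. The order of the highest libraries for IL1B, S534A 2, ∆GAG-BG 1 and S545A 1, was that of CXCL8, CXCL1 and CXCL2 as well. IL1A counts were 0.882 times IL1B counts in S534A 2, against 2.63 to 3.76 times in the other 11 libraries.

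IL6, the rarest of the expressed genes with 17 to 156 counts a library, was measured at 0.726, 1.18 and 1.61 CPM in control vector, 2.81, 1.44 and 1.26 CPM in ∆GAG-BG, 0.675, 5.21 and 1.03 CPM in S534A and 0.853, 1.96 and 1.74 CPM in S545A. LIF read 15.0, 23.3 and 24.1 CPM in control vector, 33.7, 18.1 and 18.0 CPM in ∆GAG-BG, 18.2, 31.7 and 18.0 CPM in S534A and 20.002, 25.3 and 22.9 CPM in S545A. ∆GAG-BG 1 and S534A 2 were the highest 2 libraries for both genes, but outside ∆GAG-BG neither was highest in library 1 of its group. IL11 went another way, with 8.79, 19.6 and 17.3 CPM in control vector, 7.94, 19.1 and 18.6 CPM in ∆GAG-BG, 9.07, 28.1 and 22.9 CPM in S534A and 9.11, 18.4 and 19.6 CPM in S545A. Library 1 was the lowest for IL11 in each of the 4 groups, at 0.355 to 0.479 times the mean of libraries 2 and 3.

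**Figure D2:**
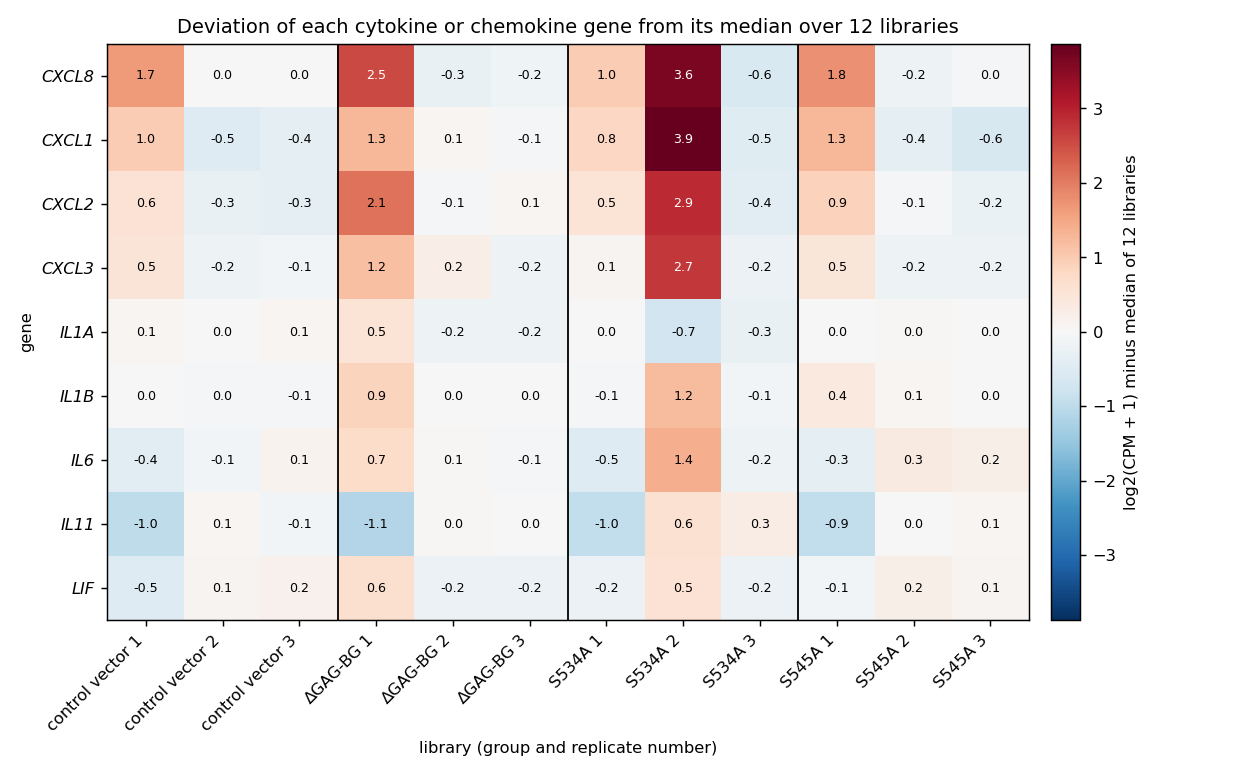
Each cell gives log2(CPM + 1) of a gene in a library minus that gene's median over the 12 libraries, red above and blue below, with black lines between groups. S534A 2 is the reddest column for the 4 ELR chemokine genes, IL1A is below its median there, and IL11 is below its median in replicate 1 of all 4 groups.

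None of the 9 genes passed edgeR's quasi-likelihood test with Benjamini-Hochberg adjustment over all 16069 genes, in any of the 6 pairs of groups. The share of all genes called at adjusted p under 0.05 was 0% in each of the 6 pairs, so nothing particular to these 10 genes can be read from that. DESeq2 and limma-voom called none of these genes either, but each called a few others in the pairs that include S534A. Of 33890 genes, DESeq2 called 5 where S534A was paired with ∆GAG-BG, 3 where it was paired with control vector and 1 where it was paired with S545A. Limma-voom called 1 of 16069 genes in each of those pairs. In the pairs without S534A both called 0. A joint test of any difference among the 4 groups called 1 of the 16069 genes (0.00622%), CHI3L2, which is not of the set and is named after its value was seen. At an unadjusted p under 0.05 that joint test took 0 of the 9 against 1.55% of all genes. CXCL1 came nearest in edgeR's joint test over all genes, with an unadjusted p = 0.0627 and an adjusted p = 1.00 by edgeR.

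In S534A against the libraries labelled control vector, CXCL1 was higher in S534A by 2.36 ± 0.98 (log2 fold change ± SE, edgeR, unadjusted p = 0.0347, adjusted p = 0.871), and it was the only 1 of the 9 at an unadjusted p under 0.05, against 3.45% of all genes. The log2 difference was 1.88 ± 0.86 for CXCL3 (edgeR, unadjusted p = 0.0502, adjusted p = 0.871), 1.80 ± 0.87 for CXCL2 (edgeR adjusted p = 0.871), 1.58 ± 1.09 for CXCL8, 1.03 ± 0.67 for IL6, 0.53 ± 0.34 for IL1B and 0.40 ± 0.47 for IL11. Of the 9 genes 8 had a positive difference, with a median of 1.03 against 0.0078 over all genes. IL1A had the only negative one, and its 3 S534A libraries were all below the 3 of control vector, with 284.7 against 285.0 CPM in the closest pair (exact permutation p = 0.1, two-sided, the smallest that 3 against 3 can give). It was the only 1 of the 9 whose groups did not overlap, against 7.65% of all genes. The chemokine differences rested on S534A 2. Without it CXCL1 differed by 0.13 and CXCL2 by 0.13, while CXCL8, IL1B and IL6 stood at -0.38, -0.059 and -0.49, and 3 of the 9 differences were positive, with a median of -0.19.

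S545A against S534A mirrored this, since S534A 2 enters both comparisons. CXCL1 had a log2 difference of -2.19 ± 0.98 (edgeR, unadjusted p = 0.0455, adjusted p = 0.702) and CXCL3 of -1.96 ± 0.87 (edgeR, unadjusted p = 0.0442, adjusted p = 0.702). These 2 of 9 genes compare with 4.78% of all genes at an unadjusted p under 0.05. Over the 9 genes 7 differences were negative and the median was -0.65. Without S534A 2 the differences were 0.033 for CXCL1 and 0.18 for CXCL3, and 8 of 9 were positive, with a median of 0.18. IL1A was higher in S545A, with its 3 libraries (287 to 292 CPM) above all 3 of S534A (172 to 285 CPM) (exact permutation p = 0.1, two-sided), where 10.1% of all genes did not overlap.

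∆GAG-BG against control vector gave positive differences for all 9 genes, down to 0.0037 for IL11 and with a median of 0.39, although 0 of 9 passed an unadjusted p under 0.05 (0.871% of all genes) and 0 of 9 did not overlap between groups (4.87% of all genes). The direction rested on ∆GAG-BG 1, without which 6 of the 9 differences were negative, CXCL8 at -1.09 among them, and the median was -0.13. LIF, whose smallest p of all was in this comparison, differed by 0.16 ± 0.29 (edgeR adjusted p = 1.00), and by -0.21 without ∆GAG-BG 1. In S534A against ∆GAG-BG, IL1A was at a log2 difference of -0.40 ± 0.20 (edgeR adjusted p = 0.890), which became 0.057 when S534A 2 and ∆GAG-BG 1 were left out together. For that pair 0 of 9 passed an unadjusted p under 0.05 (2.99% of all genes) and 0 did not overlap (5.66%).

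S545A was also compared with ∆GAG-BG and control vector. Against ∆GAG-BG 8 of 9 genes had a negative difference, with a median of -0.22, and 0 of 9 passed an unadjusted p under 0.05 (1.1% of all genes) or did not overlap (5.05%). Without ∆GAG-BG 1 this turned to 8 of 9 positive, with a median of 0.22, and IL11 alone was negative at -0.26. Against control vector 7 of 9 differences were positive, with a median of 0.13, and again 0 of 9 passed (1.05% of all genes). Without S545A 1 4 of the 9 were positive, with a median of -0.022. IL1B was the only gene of the 9 whose S545A libraries (84.3 to 109 CPM) were all above those labelled control vector (79.8 to 83.5 CPM), by 0.20 ± 0.34 on the log2 scale (exact permutation p = 0.1, two-sided, edgeR adjusted p = 1.00), and 8.82% of all genes did not overlap there. The 6 comparisons share libraries, so their directions are not separate observations.

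**Figure D3:**
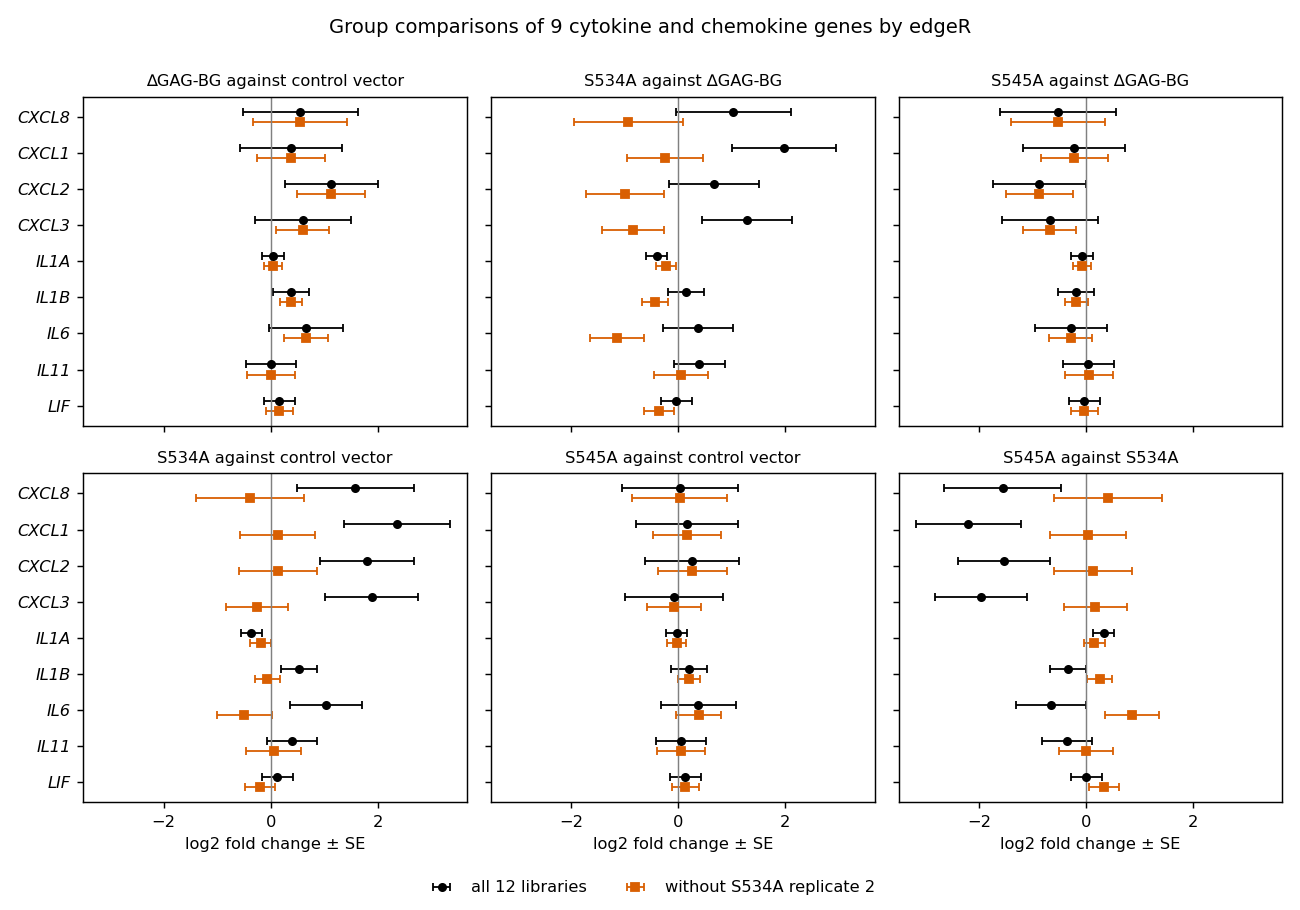
Log2 fold change ± SE by edgeR of the 9 genes in the 6 comparisons, first-named group against second, from all 12 libraries (black circles) and without S534A replicate 2 (orange squares). In S534A against control vector CXCL1 stands at 2.36 with all libraries and at 0.13 without S534A 2.

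The receptors of these factors were examined from a list. CXCR1, CCR2 and ACKR1 had 0 counts in all 12 libraries, and CXCR2 had 1 count in S534A 2, 1 in S545A 3 and 0 in the other libraries. In a library with 0 counts the upper limit is again about 3 counts (0.1001 to 0.182 CPM), so only such limits can be given. For CXCR2 no level can be given at this depth. CXCR4, the receptor of CXCL12, was the only 1 of 6 chemokine receptor genes that passed the filter. It read 6.43, 2.59 and 2.47 CPM in control vector, 6.12, 2.51 and 2.66 CPM in ∆GAG-BG, 1.74, 1.67 and 1.46 CPM in S534A and 2.21, 1.96 and 2.77 CPM in S545A. Its S534A libraries were the lowest 3 of the series, at a log2 difference of -1.24 ± 0.42 from control vector (edgeR, unadjusted p = 0.0123, adjusted p = 0.871) and -1.203 ± 0.42 from ∆GAG-BG (edgeR, unadjusted p = 0.0150, adjusted p = 0.890), or -0.66 from ∆GAG-BG without ∆GAG-BG 1 (edgeR, unadjusted p = 0.124). Control vector 1 likewise stood above libraries 2 and 3 of its group, and the difference without it is not given here. IL1R1, the signaling receptor of interleukin 1, had at most 11 counts a library and IL1RN, its natural antagonist, at most 2, whereas the co-receptor gene IL1RAP had 24.5 to 45.1 CPM, highest in S534A 2. Of 13 interleukin 1 receptor and regulator genes 7 were tested, and none passed an unadjusted p under 0.05 in any comparison.

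Receptor genes of the gp130 family were expressed except CNTFR, which had at most 3 counts. IL6ST, the shared subunit, had 205 to 306 CPM, OSMR (oncostatin M) 61.1 to 82.3, LIFR 7.37 to 19.5, IL6R 6.94 to 14.2 and IL11RA 3.09 to 4.54 CPM. IL6ST and OSMR were highest and LIFR lowest in S534A 2. Of 13 genes of this list 11 were tested, and at an unadjusted p under 0.05 2 were higher in S534A than in control vector (3.45% of all genes passed), 1 was higher in S534A than in ∆GAG-BG (2.99%) and 1 was lower in S545A than in S534A (4.78%), each 0 without S534A 2. SOCS3, a STAT3 target that feeds back on gp130 signaling, was highest in S534A 2 at 40.5 CPM against 9.80 to 15.8 CPM in the other libraries, a log2 difference of 0.90 ± 0.35 between S534A and control vector (edgeR, unadjusted p = 0.0242, adjusted p = 0.871). CLCF1, another ligand of the family, was at 16.4 CPM there against 7.47 to 10.9 CPM, with 0.46 ± 0.20 between the same groups (edgeR, unadjusted p = 0.0424, adjusted p = 0.871). No gene of the list passed the adjusted threshold.

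Among 14 other chemokine genes, 6 had 0 counts in every library and CCL20 alone passed the filter, at 1.27 to 4.77 CPM, highest in S534A 2. CXCL5 and PPBP, neighbours of the ELR genes on chromosome 4 that also act on CXCR2, had at most 2 and 1 counts. Of 14 other secreted cytokine genes 10 were tested. CSF3, which encodes the neutrophil growth factor G-CSF, had 18.3, 13.3 and 15.2 CPM in control vector, 43.4, 15.7 and 17.0 CPM in ∆GAG-BG, 22.7, 194 and 16.02 CPM in S534A and 31.5, 15.6 and 16.8 CPM in S545A. The highest 2 libraries were those of the ELR chemokine genes, with S534A 2 at 11.6 times the median of the other libraries, and CSF3 differed between S534A and control vector by 2.32 ± 0.81 (edgeR, unadjusted p = 0.0149, adjusted p = 0.871), or by 0.32 without S534A 2. TNF, a common inducer of the chemokine genes, had 2.79 to 4.97 CPM. TNFSF15 and TSLP were highest in ∆GAG-BG 1, at 118 and 3.49 CPM, and TNFSF15 was lowest in S534A 2, at 7.27 CPM.

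All 19 NF-κB subunit and feedback genes of the list were tested, and 0 of 19 passed the adjusted threshold in any comparison. Their summed level was 1631 CPM in S534A 2, 1199 CPM in ∆GAG-BG 1, 936 CPM in S545A 1 and 774 to 852 CPM in the other 9 libraries. NFKBIA, which encodes the inhibitor IκBα, was at 75.7 CPM in S534A 2 and 51.5 CPM in ∆GAG-BG 1, against 30.0 to 40.3 CPM elsewhere. TNFAIP3 (A20), another feedback inhibitor, was at 19.2 CPM in S534A 2 and 9.39 CPM in ∆GAG-BG 1, which are 4.47 and 2.19 times the median of the other 11 in each case. SOD2, the mitochondrial superoxide dismutase, stood at 443 and 192 CPM in the same libraries against 84.2 to 129.6 CPM, and differed between S534A and control vector by 1.202 ± 0.54 (edgeR, unadjusted p = 0.0471, adjusted p = 0.871). It was 1 of 19 genes of the list at that threshold, a share near the 3.45% of all genes, and the difference was 0.020 without S534A 2. The kinase genes CHUK, IKBKB and IKBKG varied little, at 27.3 to 33.5, 35.9 to 45.5 and 6.73 to 9.48 CPM. REL, an NF-κB subunit gene, went the other way and was lowest in S534A 2, at 4.50 CPM, with up to 8.64 CPM elsewhere.

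**Figure D4:**
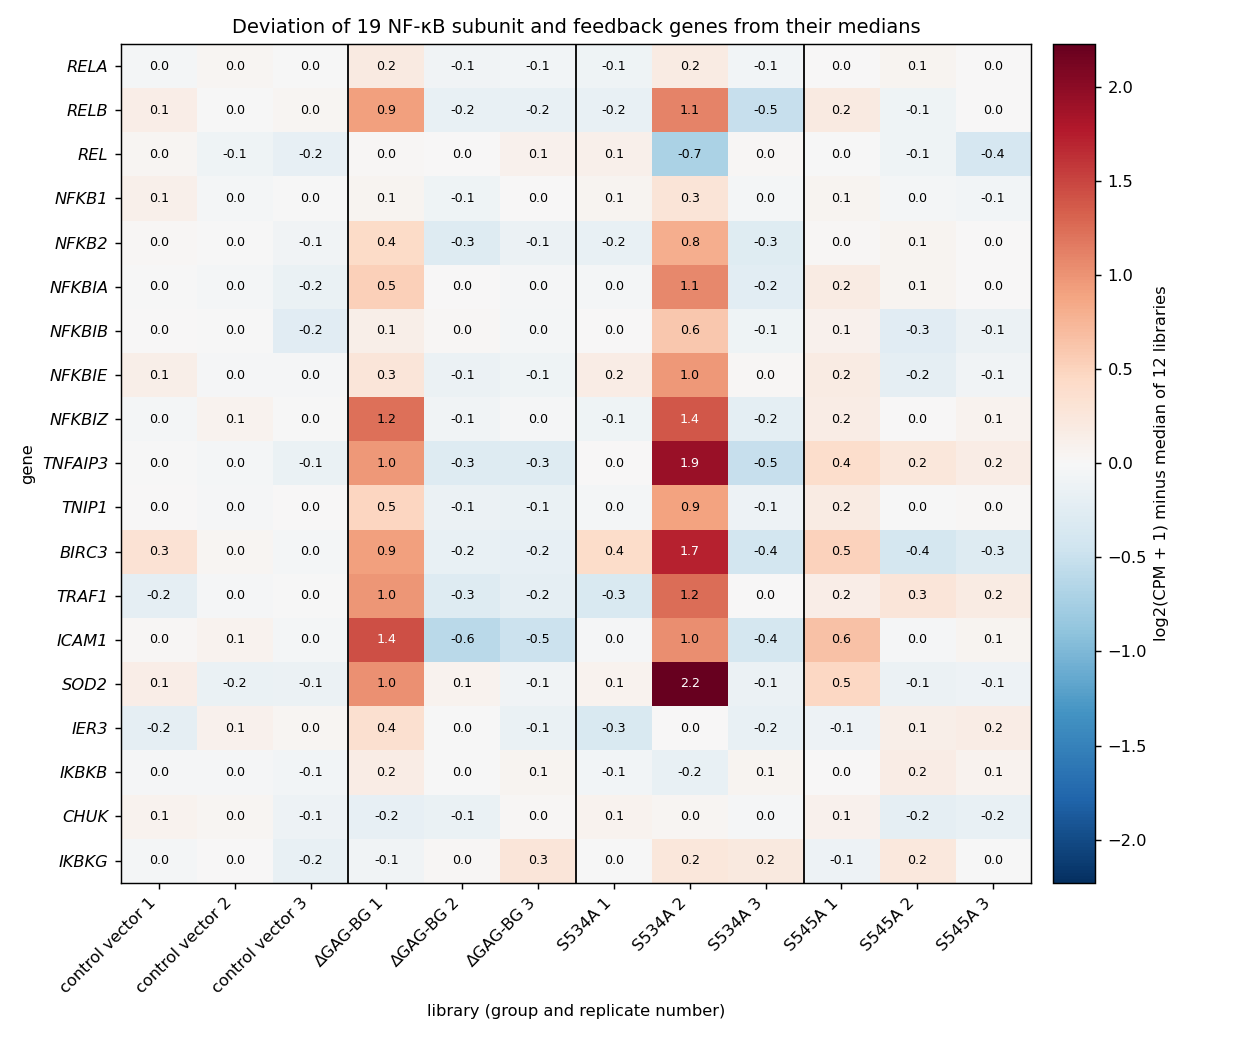
Each cell gives log2(CPM + 1) of a gene in a library minus that gene's median over 12 libraries, for 19 NF-κB subunit and feedback genes. SOD2, TNFAIP3 and BIRC3 are highest in S534A 2, ICAM1 is highest in ∆GAG-BG 1, and CHUK and IKBKG are near their medians throughout.

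Other features moved with the same libraries. Endoplasmic reticulum stress genes, a list of 10, summed to 18247 CPM in ∆GAG-BG 1 and 837 CPM in S534A 2, against 2626 to 6516 CPM in the other 10, so that the 2 libraries with the highest chemokine RNA were at opposite ends of this sum. Gene by gene, DNAJB9, SDF2L1, DDIT3 and CRELD2 were lowest in libraries other than S534A 2. In S534A against ∆GAG-BG 5 of the 10 were lower at an unadjusted p under 0.05 (2.99% of all genes passed) and 0 at an adjusted p under 0.05, DDIT3 at a log2 difference of -2.97 ± 1.21 (edgeR adjusted p = 0.890). Without ∆GAG-BG 1 or without S534A 2 the count was 0, and DDIT3 stood at 0.38 and -2.81. Leukocyte markers could matter for such factors, and of 8 markers 0 passed the filter. Their summed counts were 7 to 25 a library but 85 in S534A 2, where CSF1R had 36 and ITGAM 38 counts, while PTPRC (CD45) had at most 2 counts and CD3E 0 in all 12 libraries. Of 5 endothelial markers CDH5, at 168 to 431 CPM, and VWF, at 2.64 to 14.9 CPM, were lowest in S534A 2 and KDR, at 2.00 to 3.77 CPM, was highest there, while PECAM1 and TEK had at most 17 and 12 counts. Of 6 fibroblast markers COL1A1 had 7.98 to 17.7 CPM and was lowest in S534A 2, COL3A1 had 0 to 31 counts, PDGFRA and THY1 had at most 4 and 5, and LUM and DCN were at 0 counts. The part of these features in the chemokine differences was not tested, and more transcript per cell cannot be told apart from more cells that express a gene.

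The likeness of the patterns was described by Pearson's r of log2(CPM + 1) over the 12 libraries, which share depth and the outlying S534A 2. CXCL8 had r = 0.94 with CXCL1, 0.96 with CXCL2 and 0.91 with CXCL3, and 0.93, 0.93 and 0.90 without S534A 2. IL1B had r = 0.96 with CXCL2 and 0.94 with CXCL3, or 0.90 and 0.86 without S534A 2. With CXCL8 and CXCL1 it had 0.88 and 0.87, or 0.78 and 0.66 without that library. IL6 and LIF had r = 0.86 with each other, with and without that library. IL11 ran opposite to CXCL8, with r = -0.33 over 12 libraries and -0.96 without S534A 2, and a Spearman rank correlation of -0.38 over 12 libraries. Without S534A 2 the libraries numbered 1 were the lowest for IL11 and the highest for CXCL8, so that r largely sets these against the rest.

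Among all 16069 genes the 3 nearest were C19orf25, TMEM132A and PARVB for CXCL1 and SOD2, GDNF and C1orf122 for CXCL3. IL1B was nearest to HBEGF, NFKBIA and TNIP1 (0.99, 0.97 and 0.97), of which the last 2 are in the NF-κB list. IL11 was nearest to MGAT5B, ADM and PTPRJ (0.99, 0.98 and 0.96). ZMIZ2, HDLBP and SPIRE1 were nearest to IL1A, NEMF, SLC52A2 and VPS28 to IL6, and DNTTIP1, SLC35C2 and INF2 to LIF. With the mean of the 4 ELR chemokine genes, BIRC3 and SOD2 had the highest r of the NF-κB list, 0.98 and 0.97, or 0.95 and 0.93 without S534A 2. IER3 had 0.10 and IKBKG 0.04, while REL and IKBKB were negative at -0.50 and -0.42. Without S534A 2 REL had 0.40, IKBKB 0.11 and IKBKG -0.51.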

How the data were processed

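The authors deposited 1 table of raw counts per gene for the 12 libraries, without normalization. Per the submitters' processing notes, reads were checked with FastQC, trimmed with Trim Galore 0.4.5, aligned with STAR 2.4 and counted with featureCounts, with SAMtools 1.2 also named. The notes name mouse builds, but all 10 genes have the same coordinates in the human GENCODE annotation of GRCh38. The release used and the strand setting are not given in the sources used here, so antisense reads may be counted under IL6 and LIF.

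A minimum count of 10 in filterByExpr set which genes were tested. After TMM scaling, edgeR 4.0.16 (R 4.3.3) fitted a robust quasi-likelihood model with a term for group and no covariate (8 residual degrees of freedom). The SE is the log2 fold change divided by the root of F. Adjusted p-values are Benjamini-Hochberg over 16069 genes. Levels are CPM, on a log2 scale with 1 added. Total counts were 16410001 to 29504297, and intervals and limits cover counting error only. The code was tested on simulated counts, drawn independently for each library. They held no outlying library and no nearly alike libraries, so this checks the code and not its fit to these data.

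The genes and lists were chosen with earlier results of these data known. Each gene is given in the comparison with its smallest p and wherever an unadjusted p was under 0.05. From the other lists, up to 3 genes with the smallest unadjusted p under 0.05, receptors and NF-κB genes are named. Further values, chosen after they were seen, are given where groups did not overlap or 1 library stood apart. Same-numbered libraries of S545A and control vector deviated together (correlations of 0.73, 0.48 and 0.48), but the tests reported above did not pair them. As an alternative, a block for replicate number was fitted to all 12 libraries. For S545A against control vector it changed no count. DESeq2 1.42.0, limma-voom (limma 3.58.1), other scalings, filters, the replicate block and left-out libraries were tried. The genes nearest to CXCL8 and CXCL2 are not reported here.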

Additional observations from a re-analysis of the deposited data

How the results depend on the processing

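The count of the 10 genes at an adjusted p under 0.05 was 0 in all 6 comparisons and in the joint test under every alternative run, and 9 genes passed the filter each time, so the results that changed are counts at an unadjusted p under 0.05 and the sizes of differences. For S534A against control vector that count, 1 with all libraries, was 2 with DESeq2, with library size only, with at least 10 counts in every library and with the replicate block (IL1A and IL11 there, without CXCL1), 0 with limma-voom, with no filter, with only the 2 groups and with libraries 2 and 3 summed, and 6 without replicate 1 of every group, and it ranged from 0 (without S534A 2) to 5 (without S534A 1) with 1 library left out. For S545A against S534A it went from 2 to 1 with the replicate block (IL11, in place of CXCL1 and CXCL3), to 0 with limma-voom, with no filter, with only the 2 groups and with libraries 2 and 3 summed, to 6 without replicate 1 of every group, and to 0 to 3 with 1 library left out. For S534A against ∆GAG-BG it went from 0 to 2 with the replicate block, to 5 without replicate 1 of every group and to 1 to 2 with 1 library left out. In the joint test it went from 0 to 1 with the replicate block, to 6 without replicate 1 and to 0 to 3 with 1 library left out. Without replicate 1 the spread of 3 groups rests on their nearly alike libraries 2 and 3. For all other cases the cause was not tested. The counts of all genes at an unadjusted p under 0.05 moved too. Without replicate 1 they were 1635 of 15907 for S534A against control vector, 2715 for S545A against S534A and 1234 for S534A against ∆GAG-BG. With all libraries these were 554, 768 and 481 of 16069, and with the replicate block 575, 748 and 533. With 1 library left out they ranged from 206 to 1953, 273 to 2633 and 312 to 1800.

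Leaving out S534A 2 and ∆GAG-BG 1 together, chosen after seeing the data, gave a count of 1 for ∆GAG-BG against control vector, S545A against ∆GAG-BG, S545A against S534A and the joint test. Over all genes the counts in these pairs were then 905, 1715 and 824 of 16295, against 140, 177 and 768 of 16069 with all libraries. Some log2 differences reversed. In S534A against control vector CXCL8 went to -0.38 without S534A 2 and -0.37 without both, IL1B to -0.059 and -0.057, and IL6 to -0.49 and -0.49. In S545A against S534A CXCL1 went to 0.033 and 0.028 and CXCL3 to 0.18 and 0.17. IL1A in S534A against ∆GAG-BG went to 0.057 without both. LIF in ∆GAG-BG against control vector went to -0.21 without ∆GAG-BG 1, -0.027 without control vector 1, -0.20 without both and -0.40 without replicate 1 of every group. Apart from S545A against control vector, no comparison had libraries that paired under all their numbers (correlations of -0.31 to 0.54). At most 3 of 6 libraries were closest to their own number. Numbers 1 and 3 gave 0.26 and 0.54 in S545A against S534A and 0.23 and 0.47 in S534A against control vector. Number 2 gave -0.31 and -0.23 there, and comparisons with ∆GAG-BG gave -0.16 to 0.19. Over all genes tested, S534A 1 and S545A 1 were nearest to each other. Control vector 1 was nearest to S534A 1, but ∆GAG-BG 1 to control vector 3. With 1 library left out, these differences reached at their other end 2.42 for CXCL8, 0.75 for IL1B, 1.47 for IL6, -3.08 for CXCL1, -2.42 for CXCL3 and 0.32 for LIF. The rarest genes, IL6 and CXCL3, have as few as 17 and 19 counts a library.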

Other observations

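Other secreted factors followed the same libraries, and were singled out after their values were seen. IL18, an interleukin 1 family cytokine, was measured at 17.1, 40.2 and 39.2 CPM in control vector, 22.3, 38.1 and 36.5 CPM in ∆GAG-BG, 18.5, 9.01 and 40.7 CPM in S534A and 17.6, 44.2 and 43.4 CPM in S545A. It was lowest in S534A 2 and otherwise lowest in replicate 1 of each group, as IL11 was in replicate 1. IL32, a cytokine gene, read 9.13, 4.62 and 6.97 CPM in control vector, 13.3, 6.50 and 5.24 CPM in ∆GAG-BG, 8.43, 34.5 and 4.91 CPM in S534A and 9.34, 6.17 and 5.30 CPM in S545A. Its highest libraries, S534A 2 and then ∆GAG-BG 1, were those of the ELR chemokine genes. Neither IL18 nor IL32 passed an unadjusted p under 0.05 in any of the 6 comparisons by edgeR.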
